A study of Mus musculus with 6 samples.

Results

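The alternate alpha protocadherins are the alpha genes of the clustered protocadherin locus other than the C-type pair, Pcdhac1 and Pcdhac2. They were taken by their GENCODE M21 symbols, Pcdha1, 2, 3, 5, 6, 7, 8, 9, 11 and 12. Because the symbol Pcdha11 is carried by 2 identifiers, called upstream (ENSMUSG00000007440) and downstream (ENSMUSG00000102206) by their place in the array, these 10 symbols stood for 11 of the 54532 gene identifiers counted, and for 11 of the 14 alpha genes. Pcdha4, which had almost no counts, was left out of the group and is described separately. All 11 were tested, and their levels were followed in whole brains of C57BL/6J mice at postnatal day 14. The 3 controls were Mphosph8fl/+ Nestin-Cre+ and the 3 mutants, Mphosph8∆n, were Mphosph8fl/fl Nestin-Cre+, with 1 library per mouse. Both groups thus carried Nestin-Cre and at least 1 floxed allele, in which exon 4 lies between loxP sites. By these labels Cre can delete 1 copy of Mphosph8 in the controls and both copies in the mutants. The controls are thus not wild type, although the study's own text mentions only Nestin-Cre for the control brains. Nestin-Cre acts in neural progenitors and their descendants, so cells of other origins in a whole brain, such as microglia and vessel cells, keep the gene.

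Each alpha protocadherin is a cell surface cadherin whose whole extracellular part is encoded by a single large variable exon with its own promoter. The chosen variable exon is spliced to constant exons common to the whole array, so that isoforms differ mainly outside the cell and share the cytoplasmic part that the constant exons encode. Alternate promoters are chosen largely at random in individual neurons, with CTCF and cohesin bringing a promoter to a distant enhancer, and the resulting set of isoforms gives each neuron a surface identity used in self-recognition and axon arrangement. C-type promoters follow rules of their own, and Pcdhac2 is known for its expression in serotonergic neurons. MPP8, the product of Mphosph8, is a reader of histone H3 lysine 9 trimethylation in the repressive HUSH complex.

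Depth ran from 12956880 to 15223424 counts per library, and any replicate pair within a genotype was further apart than counting error (chi-square divided by its degrees of freedom was 3.42 to 12.3). Mphosph8 was lower in every mutant library (26.5 to 33.1 CPM, counts scaled to library size) than in every control library (48.6 to 70.7 CPM), at -1.02 ± 0.12 (SE) on the log2 scale (edgeR, adjusted p 0.000157). Counts of 4 Y-linked genes summed to 3641 in control replicate 3 and to 1 in the other 5 libraries together, and the labels give no sex. By these counts only control replicate 3 appears male, so sex was not balanced between the groups. The study describes its littermates as matched for age and sex. The part of sex in the members' values was not tested. The defining neuronal markers were present in all libraries, with 8 genes summing to between 5599 and 6467 CPM.

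The members are built alike. They lie on the plus strand of chromosome 18 (GRCm38). The variable exon of Pcdha1, at 36930285 to 36932672, is the first, and that of Pcdha12, at 37020149 to 37022623, is the last. The start of Pcdha12 lies 69864 bases before the start of Pcdhac1. The transcript with the longest coding sequence of each member has 4 exons, of which the last 3 are common to the array. Its variable exon, 2346 to 2507 bases long, holds between 83.7% and 84.5% of the 934 to 979 codons. GC content of the variable exons ran from 52.6% to 54.7%, with a median of 53.2%, against a median of 49.4% in the longest transcripts of all tested genes. Their ratio of observed to expected CpG ran from 0.613 to 0.773, with a median of 0.678. The longest transcripts of the tested genes had a median of 0.385, and 8.51% of them reached the lowest member's ratio. Both comparisons set a single exon beside whole transcripts, so the measures are unlike.

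The coding parts of the variable exons were between 72.0% and 83.5% identical over the 55 pairs of members, with a median of 75.8%. Pcdha7 and Pcdha8 were the most alike pair. Identity to the C-type exons was lower, from 49.6% to 53.5% over 22 pairs. This likeness bears on the counts, since between 10.1% and 28.6% of the 50-base words in a member's own exonic bases also occur in another annotated gene, other alpha members among them, and such reads may have been lost or split. Pcdha6 (28.6%), Pcdha7 (25.5%) and Pcdha8 (18.8%) had the largest shares, and the C-type genes had none.

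Overlapping annotation sets a further limit. Pcdha4 shares 2410 of the 2503 bases of its variable exon with Gm42416, a read-through model on the same strand, which leaves 93 bases to Pcdha4 alone. It had 3 counts in mutant replicate 2 and 0 in the other 5 libraries, and Gm42416, which has no exonic base of its own, had 0 counts in all of them. A count of 0 allows up to 3 counts, so both groups were at or under that limit and no fold was computed. How much Pcdha4 the brains expressed cannot be read from these counts. Among members, Pcdha6 shares 222 bases of its variable exon with Gm37013 and Pcdha7 shares 338 with Gm37388, both also models with 0 counts.

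On the opposite strand, the antisense RNA Gm10545 lies over 2446 bases of the downstream Pcdha11 exon and 531 bases of the Pcdha12 exon, and it had 18 counts over the 6 libraries. Gm37753 lies over 399 bases of the Pcdha6 exon and had 4 counts, and Gm38225 over 393 bases of the Pcdha4 exon with 6 counts. The sources used here do not give the strand setting of the counting, and how far these genes exchange reads was not tested.

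**Figure D1:**
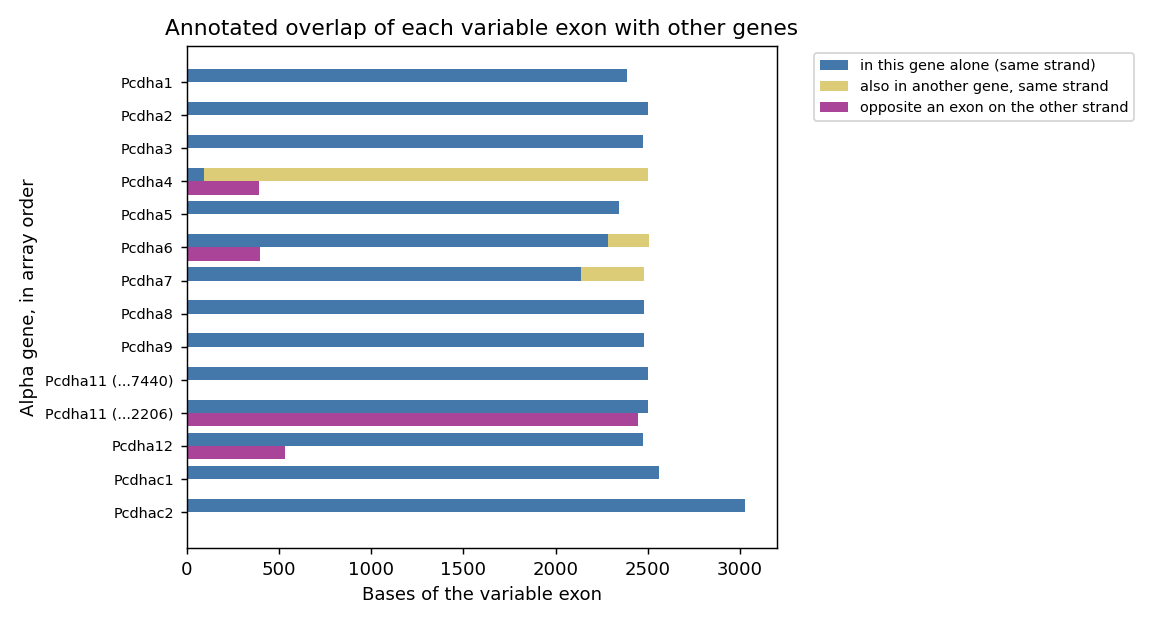
Bases of the variable exon (horizontal axis) for the 14 alpha genes in array order. Upper bars split the exon into bases of that gene alone and bases annotated to another gene on the same strand, and lower bars give bases opposite an exon on the other strand. Pcdha4 keeps 93 bases of its own, whereas every member keeps at least 2139.

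Members were weakly expressed. In a single library a member had between 7 and 94 counts, and the members' mean levels had a median of 3.35 CPM, against 20.8 CPM over all tested genes. To compare members with each other, CPM was divided by the kilobases of exon that belong to that gene alone. On that scale the control level of Pcdha12 was highest, at 2.44 ± 0.227 CPM per kb (SD, n = 3), and its 3 libraries lay above all libraries of the next gene, Pcdha9, at 1.43 ± 0.301. From Pcdha9 down through Pcdha3, Pcdha7, Pcdha5, the upstream Pcdha11, Pcdha2 and Pcdha6 (0.778 ± 0.104) the libraries of each neighbour in the order overlapped. Pcdha1, at 0.397 ± 0.0126, and Pcdha8, at 0.272 ± 0.10, were lowest and overlapped each other.

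The downstream Pcdha11 stood between them and Pcdha6 at 0.598 ± 0.0919 CPM per kb, but 2106 of its own bases lie outside the variable exon. If all its reads came from the variable exon, its control level would be 1.10 CPM per kb, close to that of the upstream Pcdha11 at 1.03.

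In mutant brains the order was different and the levels were closer together. Pcdha7 came first, at 2.15 ± 0.491 CPM per kb, followed by Pcdha3 at 2.02 ± 0.182, and Pcdha12 stood seventh at 1.27 ± 0.0732. Every neighbour in the mutant order overlapped the next. The highest member's mean was 8.96 times the lowest member's in controls and 2.94 times in mutants, and without Pcdha12 these ratios were 5.26 and 2.94. The lowest mutant mean was that of the downstream Pcdha11, at 0.730 CPM per kb, or 1.34 per kb of its variable exon. Next above it was Pcdha8, at 0.809 ± 0.501. In controls Pcdha8 was the lowest member, so the control ratios rest on its 9, 13 and 7 counts.

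**Figure D2:**
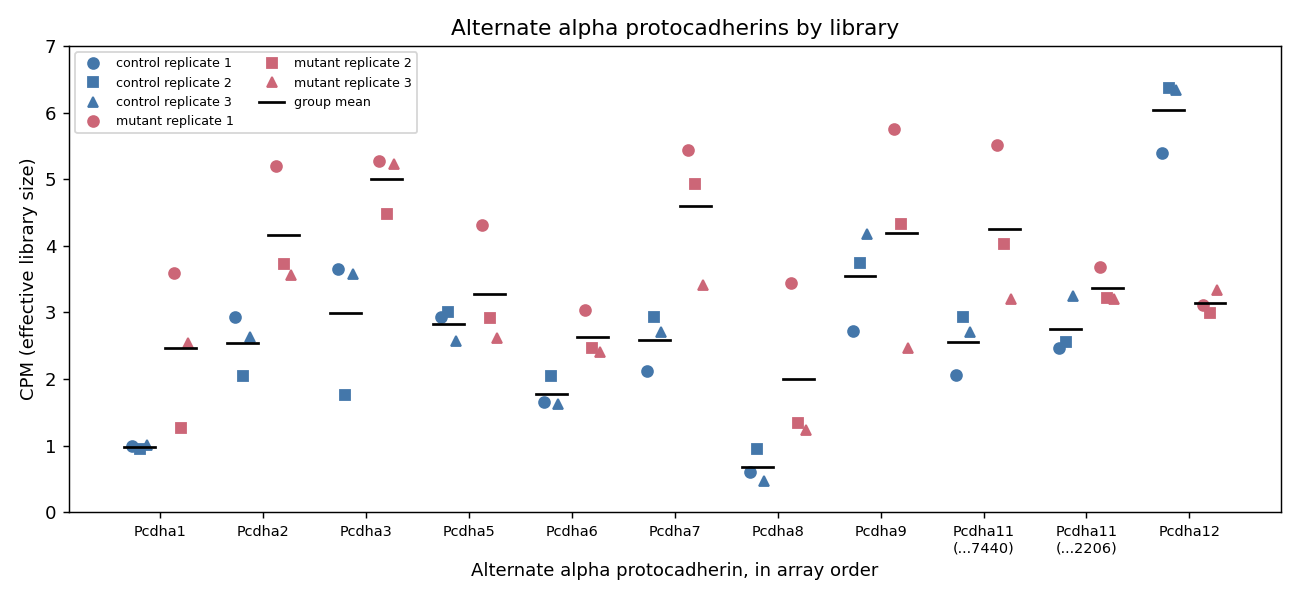
CPM on the effective library size (vertical axis, linear, from 0) for the 11 members in array order. Each point is 1 library, with shapes for the replicate number and lines for the group means, and identifiers are shortened for the Pcdha11 pair. Pcdha12 is the only member whose control points all lie above its mutant points, while mutant replicate 1 is the highest mutant library for 10 of the 11 members.

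Across the members, 10 log2 fold changes were positive and 1 was negative, with a median of 0.70 against -0.007 over the 16731 genes tested. No member passed both an adjusted p under 0.05 and a 2-fold change in edgeR's quasi-likelihood test, where 0.359% of all tested genes did. At an adjusted p under 0.05 without the fold limit, 0 members were higher in mutants, beside 0.532% of tested genes, and 1, Pcdha12, was lower, beside 0.0956%. At an unadjusted p under 0.05, 7 members were higher (4.09% of tested genes were) and 1 was lower (2.41%). The 7, the 10 positive values and the median include Pcdha8, which reached edgeR's minimum level in 1 control library and in 3 mutant libraries.

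The same 7 members, Pcdha1, Pcdha2, Pcdha3, Pcdha6, Pcdha7, Pcdha8 and the upstream Pcdha11, had all 3 mutant libraries above all 3 control libraries. That is 63.6% of the members, beside 6.23% of tested genes. The members share libraries and some sequence, so the 7 are not independent observations. Some gaps were small in counts, as for Pcdha1, with 17 in mutant replicate 2 and 15 in control replicate 1. Pcdha12 had the groups apart in the other direction, 9.09% of members beside 5.42% of tested genes. Pcdha5, Pcdha9 and the downstream Pcdha11 overlapped. Of the 11 members, 10 met edgeR's minimum level, 0.730 CPM on the total counts, in every library. Pcdha8 met it in the 3 mutant libraries and in 1 control library, so its place among the tested genes came through the group where it was high.

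**Figure D3:**
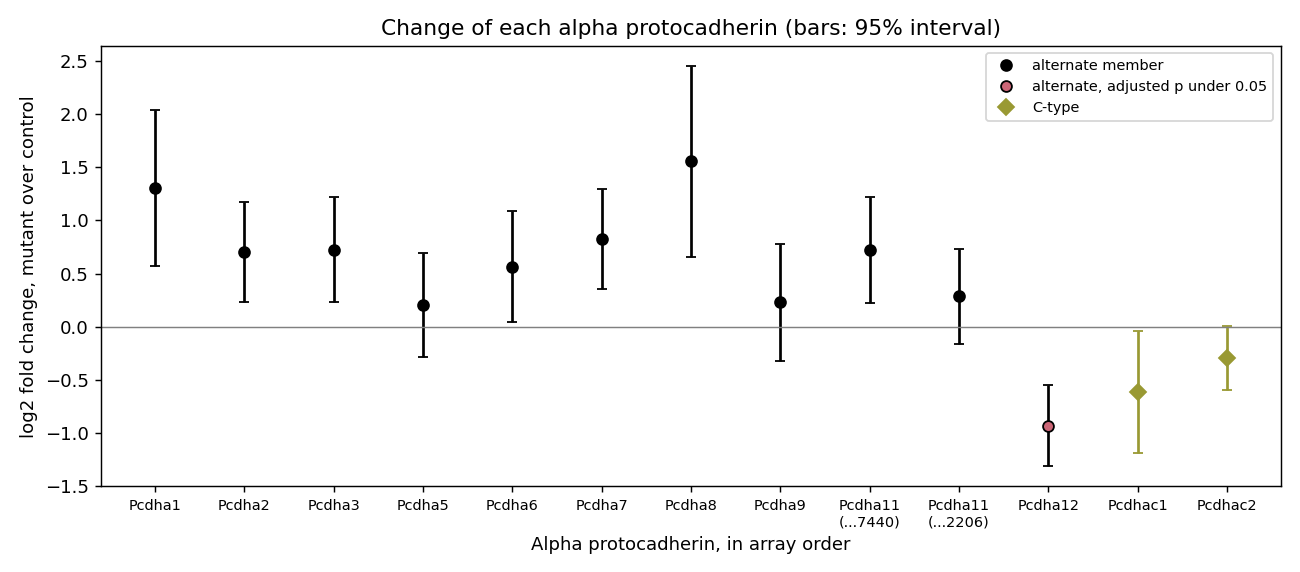
Log2 fold change of mutant over control (vertical axis) with its 95% interval for the tested alpha genes in array order, with circles for alternate members and diamonds for the C-type pair. The intervals of 8 members exclude 0, 7 above it and 1, that of Pcdha12, below it. In edgeR 4.09% of tested genes were higher and 2.41% lower at an unadjusted p under 0.05. Among the 7 is Pcdha8, which was tested through its mutant libraries. The filled Pcdha12 point, at -0.93, is the one with an adjusted p under 0.05.

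Pcdha12 (ENSMUSG00000103310), the last alternate gene before the C-type pair, fell in mutant brains. Its level was 5.39, 6.37 and 6.34 CPM in the controls and 3.12, 2.99 and 3.34 CPM in the mutants. The lowest control library was thus 1.61 times the highest mutant library, and the mutant libraries were tightly grouped. Group means were 6.03 ± 0.561 and 3.15 ± 0.181 CPM (SD, n = 3), and the log2 fold change was -0.93 ± 0.18 (SE, 95% interval -1.32 to -0.55) at an adjusted p of 0.0173 in edgeR. The adjusted p was 0.0995 without control replicate 2, 0.1 without control replicate 3 and 0.0918 without mutant replicate 2, at log2 fold changes of -0.90, -0.89 and -0.90. Without control replicate 1 the log2 fold change was -1.01, past both thresholds.

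Pcdha8 and Pcdha1, the members with the lowest control levels, had the largest positive fold changes, both over 2-fold with all 6 libraries but not without mutant replicate 1, and neither passed the adjusted threshold. Pcdha8 (ENSMUSG00000103800, variable exon 36992371 to 36994848) was at 0.598, 0.952 and 0.472 CPM in controls and at 3.44, 1.34 and 1.24 CPM in mutants. Mutant replicate 1 was far above the other mutant libraries, which still exceeded every control. The log2 fold change was 1.56 ± 0.43 (SE, 95% interval 0.66 to 2.46) with an edgeR adjusted p of 0.165, and without mutant replicate 1 it was 0.94 with an adjusted p of 0.469. With counts of 9, 13 and 7 in the controls, counting error alone is large for this gene. Only 1 control library met edgeR's minimum level, so Pcdha8 was tested through its mutant libraries.

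Pcdha1 (ENSMUSG00000103442), the first gene of the array, was at 0.997, 0.952 and 1.01 CPM in controls, which barely differed, and at 3.60, 1.27 and 2.54 CPM in mutants, which were widely spread. The log2 fold change was 1.31 ± 0.35 (SE, 95% interval 0.57 to 2.04) at an adjusted p of 0.146 in edgeR. Without mutant replicate 2, the lowest mutant library, it was 1.62 with an adjusted p of 0.0254 and passed both thresholds, whereas without mutant replicate 1, the highest, it was 0.95, under 2-fold, with an adjusted p of 0.360.

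Next to these came Pcdha7 (ENSMUSG00000104318, variable exon 36973802 to 36976278), at 2.13, 2.93 and 2.70 CPM in the controls and 5.44, 4.93 and 3.42 CPM in mutants. No mutant library reached down to the controls. Its log2 fold change was 0.83 ± 0.23 (SE, 95% interval 0.35 to 1.30) with an edgeR adjusted p of 0.162.

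Pcdha3 (ENSMUSG00000102312) and Pcdha2 (ENSMUSG00000104148), near the start of the array, had like values. Pcdha3 was at 3.66, 1.76 and 3.58 CPM in controls and at 5.28, 4.48 and 5.23 CPM in mutants, with control replicate 2 the low library. Pcdha2 was at 2.93, 2.05 and 2.63 CPM in controls and at 5.20, 3.73 and 3.56 CPM in mutants. Their log2 fold changes were 0.72 ± 0.23 and 0.70 ± 0.23 (SE), with edgeR adjusted p of 0.340 and 0.334. Without control replicate 2 the value of Pcdha3 was 0.46, with an adjusted p of 0.933. For both genes the lowest mutant library stood above the highest control library.

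The upstream Pcdha11 (ENSMUSG00000007440, variable exon 37005203 to 37007701) lies where RefSeq places Pcdha10, and it was at 2.06, 2.93 and 2.70 CPM in controls and at 5.52, 4.03 and 3.20 CPM in mutants. Pcdha6 (ENSMUSG00000103707) was at 1.66, 2.05 and 1.62 CPM in controls and at 3.04, 2.46 and 2.40 CPM in mutants. For both, mutant replicate 1 was highest and no library crossed between groups. The log2 fold changes were 0.72 ± 0.24 and 0.57 ± 0.25 (SE), with edgeR adjusted p of 0.355 and 0.693, so Pcdha6 had the smallest change among the 7 members whose mutant libraries were all higher.

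In the remaining 3 members the groups overlapped. Pcdha5 (ENSMUSG00000103092) was at 2.93, 3.00 and 2.56 CPM in controls and at 4.32, 2.91 and 2.62 CPM in mutants, so that only mutant replicate 1 was above the controls. Pcdha9 (ENSMUSG00000103770) was at 2.73, 3.74 and 4.18 CPM in the controls and 5.76, 4.33 and 2.47 CPM in mutants, where mutant replicate 3 was the lowest library of all. Their log2 fold changes, 0.21 ± 0.23 and 0.23 ± 0.26 (SE), had 95% intervals of -0.28 to 0.70 and -0.32 to 0.78, and turned to -0.03 and -0.06 without mutant replicate 1.

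The downstream Pcdha11 (ENSMUSG00000102206, variable exon 37010752 to 37013251) was at 2.46, 2.56 and 3.24 CPM in controls and at 3.68, 3.21 and 3.20 CPM in mutants. Control replicate 3 reached just above the lower mutant libraries. Its log2 fold change was 0.28 ± 0.21 (SE, 95% interval -0.17 to 0.73), with an edgeR adjusted p of 0.913. The 95% intervals of these 3 genes include both 0 and the 0.57 of Pcdha6.

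Mutant replicate 1 was the highest mutant library for 10 of the 11 members, all but Pcdha12, and it was so for 37.8% of tested genes. Without it the groups stayed apart in the same numbers of members, 7 higher and 1 lower, where 12.6% and 12.9% of tested genes were apart, and the median log2 fold change was 0.50.

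Summed over the members, the level was 27.5, 29.3 and 31.0 CPM in controls and 48.4, 35.7 and 33.2 CPM in mutants. All mutant sums were above all control sums, with mutant replicates 2 and 3 close to the controls. The means were 29.3 ± 1.76 and 39.1 ± 8.13 CPM (SD, n = 3), a ratio of 1.33 or 0.42 on the log2 scale. Without mutant replicate 1 the log2 ratio was 0.23. Without Pcdha12 the sums were 22.1, 22.9 and 24.7 CPM against 45.3, 32.7 and 29.9 CPM, a ratio of 1.55. In bulk RNA, more cells expressing a member and more RNA per expressing cell cannot be told apart, nor can fewer cells and less RNA per cell.

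How the members divided their counts differed between genotypes as well. Pcdha12 held 19.6%, 21.8% and 20.4% of the members' 400 to 460 counts in the control libraries, and 6.45%, 8.37% and 10.1% of 457 to 605 counts in the mutant libraries. The 95% Wilson intervals, which cover counting error only, extended 1.97 to 4.03 percentage points to either side, and no control interval met a mutant interval. Pcdha12 was the largest member in all 3 controls, whereas Pcdha9, Pcdha7 and Pcdha3 were the largest in mutant replicates 1, 2 and 3. The largest share was thereby 20.6% ± 1.10 in controls and 13.8% ± 1.93 in mutants, and the smallest member's share was 2.32% ± 0.873 and 4.52% ± 1.53 (SD, n = 3).

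As a single measure of evenness, the exponential of the Shannon entropy of the shares was taken, which would be 11 if all members were counted equally. This effective number was 9.71, 9.63 and 9.48 in controls and 10.7, 10.3 and 10.5 in mutants. The groups did not overlap, at 9.61 ± 0.121 and 10.5 ± 0.229 (SD, n = 3), a difference of 0.87. Divided by the bases of each gene alone, the means were 9.48 and 10.3. Without Pcdha12 the effective number could be at most 10, and the difference was 0.39. The differences of 0.87 and 0.39 are therefore on different scales. These numbers describe the pooled RNA of a whole brain and do not give the number of isoforms in a cell.

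**Figure D4:**
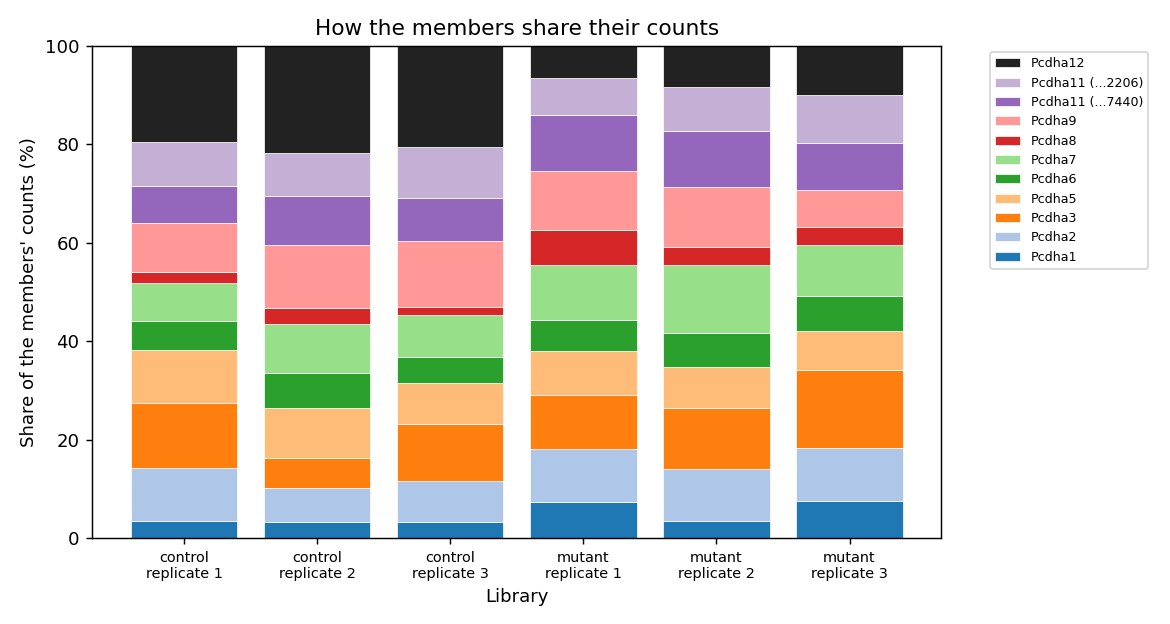
Share of the members' summed counts (vertical axis, percent) taken by each member in each of the 6 libraries, stacked in array order with Pcdha12 in black on top. The black segment holds 19.6% to 21.8% in the control libraries and 6.45% to 10.1% in the mutant libraries.

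Some features of the members were set beside their fold changes as a description over 11 genes that share libraries and sequence. Position in the array and log2 fold change had a Spearman rho of -0.38, which was -0.18 without Pcdha12. Control level per kb and log2 fold change had a rho of -0.59, and both contain the same control counts. The share of words found elsewhere and log2 fold change had a rho of 0.62, so members with less unique reads tended to have the larger positive values. Pcdha6, with the largest share at 28.6%, was however at only 0.57. The smallest share, 10.1% for the downstream Pcdha11, counts words from 2106 bases outside its variable exon. The part of shared reads in these values was not tested.

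The C-type genes at the end of the array had negative values, as Pcdha12 had. Pcdhac1 had 3.06 ± 0.761 CPM in the controls against 1.99 ± 0.569 CPM in the mutants, and Pcdhac2, the most abundant alpha gene, at 26.0 ± 3.92 and 21.2 ± 5.03 CPM (SD, n = 3). Their libraries overlapped between the groups, and the log2 fold changes of -0.62 ± 0.27 and -0.29 ± 0.14 (SE) had edgeR adjusted p of 0.697 and 0.783. Of all counts of members and C-type genes, the members held 51.9%, 51.7% and 47.5% in controls and 62.3%, 63.9% and 62.1% in mutants. These shares did not overlap between the groups, and their 95% Wilson intervals extended at most 3.51 points to either side.

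The other arrays of the locus, whose members are likewise adhesion proteins with an extracellular part encoded by a large exon, were measured in the same fit. Of 21 tested beta genes, 21 had positive values, with a median log2 fold change of 0.75, and 11 were higher at an adjusted p under 0.05. Of 19 alternate gamma genes, 17 were positive, with a median of 1.27, and 13 were higher at that threshold. The alternate alpha median of 0.70 was thus near the beta median, while the number passing was 0 of 11. Standard errors differed as well, with medians of 0.23 for the alternate alpha, 0.14 for the beta and 0.15 for the alternate gamma genes, at median levels of 3.35, 9.05 and 11.2 CPM. The differences between arrays were not tested.

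The ranges of the arrays were also unlike. Beta values ran from 0.12 ± 0.10 (SE) for Pcdhb22 to 2.71 ± 0.14 for Pcdhb6, and alternate gamma values from -0.19 ± 0.15 for Pcdhgb6 to 1.72 ± 0.23 for Pcdhgb8. No tested beta or alternate gamma gene was lower at an adjusted p under 0.05. Among the C-type gamma genes all 3 were negative, and Pcdhgc4 at -0.80 and Pcdhgc3 at -0.42 fell, with edgeR adjusted p of 0.00723 and 0.0437, while Pcdhgc5 was at -0.23 with an adjusted p of 0.893.

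**Figure D5:**
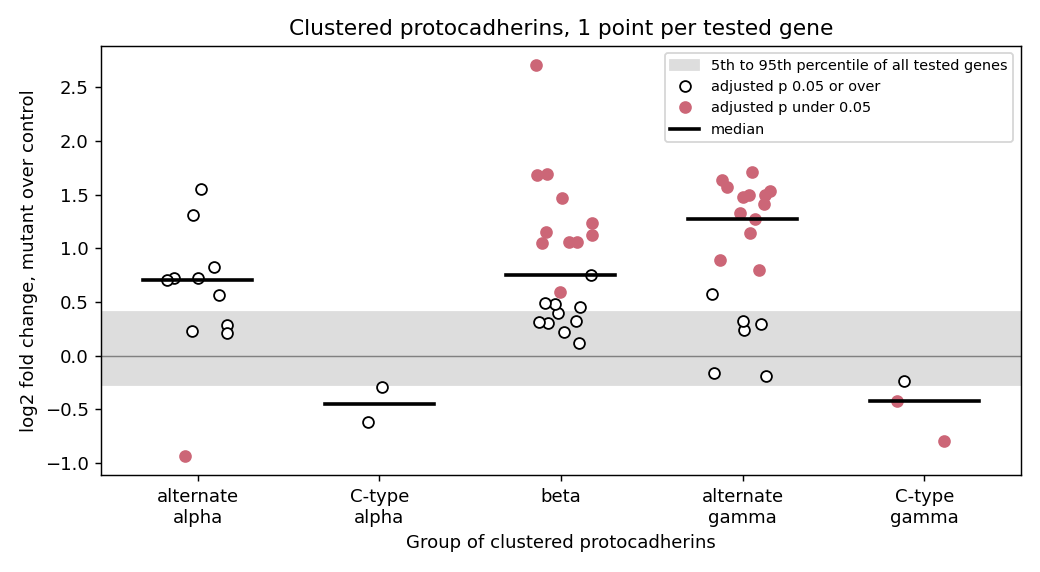
Log2 fold change of mutant over control (vertical axis) for each tested clustered protocadherin, 1 point per gene, in 5 groups, with horizontal bars for medians and filled points for an adjusted p under 0.05. The shaded band spans the 5th to 95th percentile of all tested genes, from -0.27 to 0.41. The alternate alpha median of 0.70 lies above the band and Pcdha12 below it.

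Genes that act with alpha protocadherins were examined from a list of 16 that covers the kinases Fyn, Src, Ptk2, Ptk2b and Ret, bound or reached by the cytoplasmic part, and the WAVE actin regulators. Their log2 fold changes had a median of 0.02, 9 were positive and 7 negative, and none passed an adjusted p under 0.05. The values ran from -0.13 ± 0.12 (SE) for Ret to 0.15 ± 0.08 for Wasf3, a WAVE subunit, with edgeR adjusted p of 0.935 and 0.806. A list of 17 regulators of promoter choice, which holds Ctcf, the cohesin subunits, DNA methyltransferases and H3K9 methyltransferases, had a median of 0.00. It ran from -0.15 ± 0.24 for Dnmt3b, a DNA methyltransferase, to 0.17 ± 0.08 for Ehmt2, an H3K9 methyltransferase, and again none passed. A transcript level says nothing of whether the protein binds at the array.

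Cell type markers were followed because a whole brain mixes cell types. The 8 neuronal markers had a median log2 fold change of -0.04, ran from -0.16 for Snap25 to 0.17 for Map2, and none passed the threshold, with sums of 5857 to 6258 CPM in controls and 5599 to 6467 CPM in mutants. All 8 oligodendrocyte markers were negative, with a median of -0.47 and values from -0.53 for Mal to -0.24 for Cnp. Their sums were 21889 to 26218 CPM in controls and 17339 to 20114 CPM in mutants, and the myelin genes Mal, Mog and Cldn11 fell, with edgeR adjusted p of 0.0241, 0.0351 and 0.0496.

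Of 6 serotonergic markers 5 were tested, with a median of -0.26 and sums of 43.0 to 56.1 CPM in controls and 33.7 to 43.5 CPM in mutants. The 5 did not share a direction, and none passed the threshold. The serotonin transporter gene Slc6a4 was at -1.12 ± 0.26 (SE) and Tph2, the enzyme of brain serotonin synthesis, at -0.95 ± 0.22, each with every mutant library below every control library and edgeR adjusted p of 0.0686 and 0.0702. Ddc was at -0.26 ± 0.12, Slc22a3 at -0.09 ± 0.16 and Gata3 at 0.25 ± 0.21, and their libraries overlapped between the groups.

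No marker of the other lists passed the threshold. The astrocyte markers had a median of 0.07 (Gfap -0.24 to Aldh1l1 0.26), the oligodendrocyte progenitor markers -0.07 (Gpr17 -0.22 to Pdgfra 0.01), the microglial markers 0.06 (Aif1 -0.14 to Csf1r 0.15) and the blood and vessel markers -0.08 (Pecam1 -0.12 to Hba-a1 0.17). No marker tested was at 0 in a whole group, and the part of cell composition in the values of the alpha genes was not tested.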

How the data were processed

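The authors made polyA-selected libraries and sequenced single reads of 50 bases, which were trimmed, cleared of ribosomal and other unwanted reads, aligned to GRCm38 and assigned to genes by featureCounts. What was deposited are raw, unscaled counts for each gene. Trim Galore 0.5.0, Bowtie2 2.3.4.1 and Subread 1.6.2 are named in the submitters' processing notes. The strand setting, and the treatment of reads that fall in more than 1 gene, are not given in the sources read.

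All 54532 identifiers of each library entered the analysis, and 54495 matched GENCODE M21. Counts were fitted with edgeR 4.0.16 (R 4.3.3), using filterByExpr, TMM scaling, genotype as the only term and the quasi-likelihood F test, with Benjamini-Hochberg adjustment over 16731 genes. CPM refers to the effective library size, on which 1 CPM was between 12.5 and 15.0 counts. Standard errors were derived from the F statistic, and 95% intervals use the same fit. The p-values measure the spread between 3 mice per group. Sums, shares and effective numbers are descriptions without a test. Bases, words and identities were computed from GENCODE transcripts, and RefSeq names from its GRCm38 annotation. The steps were tested on simulated data.

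The members and all lists were chosen with earlier results of these data known. The genes named were every member, Pcdha4, the C-type pair, Mphosph8, genes overlapping a member, and of each list the extremes and any gene past the threshold (for beta and gamma genes the extremes), plus the 5 genes most like the members' sum. Pcdhgc3, Tph2, Ddc and Slc22a3 were named after their values were seen. Same-numbered libraries had correlations of 0.10, -0.05 and 0.08 in their deviations from the group means, so the numbers were not taken as pairs. The alternatives tried were DESeq2 1.42.0, voom from limma 3.58.1, RLE size factors, other filters on low counts, a GC correction, the replicate block, each library left out and other member sets. Those for members whose groups did not overlap were chosen after seeing the data.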

Additional observations from a re-analysis of the deposited data

How the results depend on the processing

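The number of members past both thresholds, 0, was 2 with no filter on low counts (0.297% of all genes tested in that fit), 1 with a fold limit of 1.5 (0.508%) and 0 to 1 without 1 library (0.275% to 0.393%), where Pcdha12 passed without control replicate 1 and Pcdha1 without mutant replicate 2. The number past the adjusted p alone, 1, was 4 with no filter (0.75% of genes tested, against 0.628% with the filter), where Pcdha1, Pcdha7 and Pcdha8 joined with edgeR adjusted p of 0.00351, 0.0237 and 0.00143, and 0 to 1 without 1 library (0.387% to 0.949%). The cause of the change with the filter was not tested. Without mutant replicate 1, Pcdha5 turned to -0.034 and Pcdha9 to -0.063, and without 1 library Pcdha5 ran from -0.034 to 0.35 and Pcdha9 from -0.063 to 0.50. The effective number differed by 0.39 rather than 0.87 without Pcdha12.

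The median log2 fold change of the members ran from 0.50 to 0.76 over 14 alternatives. Pcdha12 kept its direction in all 14, from -1.01 to -0.89, with adjusted p from 0.000577 to 0.1, and Mphosph8 ran from -1.13 to -0.85 with adjusted p of at most 0.00429. The log2 ratio of the members' sum, 0.42, ran from 0.23, without mutant replicate 1, to 0.63, without Pcdha12, over 10 alternatives. Members with groups apart numbered 7 to 8 higher and 1 lower over 7 alternatives chosen after seeing the data, beside 6.37% and 5.22% of tested genes with RLE size factors, and 9.22% to 12.7% higher and 8.71% to 12.9% lower without 1 library. With the replicate block, 0 members passed both thresholds (0.371% of tested genes did), 1 passed the adjusted p (0.741%) and the median was 0.71. The block changed no call of a member. Its edgeR adjusted p was lower for all members but Pcdha6, Pcdha12 and the upstream Pcdha11, at 0.0733 for Pcdha1 and 0.0835 for Pcdha8. A member had 7 to 94 counts in a library, and the part of this depth in the number of calls was not tested.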

Other observations

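The genes outside the clustered protocadherins whose log2 CPM followed the log2 of the members' sum most closely over the 6 libraries were Khdrbs2 (Pearson r 0.993), which encodes an RNA-binding protein, Pnpla8 (0.984), Gm28791 (0.981), Gm5136 (0.980) and Dnase2a (0.978). Of 16675 genes compared, 139 had an r over 0.9, and 6 libraries of 2 groups share depth and genotype, so these values are a description. Khdrbs2 was at 7.58, 7.69 and 8.03 CPM in controls and 10.1, 8.51 and 8.07 CPM in mutants, with mutant replicate 1 highest, as for most members. None of the 5 passed an adjusted p under 0.05 in edgeR, with Gm28791 at a log2 fold change of 1.09 and an adjusted p of 0.529.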
